A study of Mus musculus with 12 samples.

Results

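Circadian clock outputs and repressors were examined in liver sinusoidal endothelial cells, the fenestrated endothelium of the liver, because their levels depend on the time of day at which tissue is taken. The set comprised 10 genes listed by name (Per1, Per2, Per3, Cry1, Cry2, Nr1d1, Nr1d2, Dbp, Tef and Ciart), and all 10 were found among the 25428 probe sets, 1 probe set per gene. The question was whether harvest time could differ between arrays. Microarrays had been hybridised with RNA from 6 NICD-OE-HEC samples, from mice that carried Clec4g-Cre and the Rosa26-N1ICD-IRES-GFP allele, and from 6 Control samples labelled only as Ctrl. In NICD-OE-HEC mice the Clec4g regulatory sequence, active in hepatic endothelium, drives the Cre that switches on the Notch1 intracellular domain. Every sample of both groups pooled the livers of 3 mice, and the cells were taken by collagenase digestion, a density gradient and beads against CD146. The sources used here do not give clock time at harvest, lighting, feeding, age, sex or the full Control genotype, and so offer no time to set beside the values.

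In the mammalian clock, the activators BMAL1 (from Arntl) and CLOCK bind E-box sequences and switch on the Per and Cry genes, whose proteins feed back to repress that same pair. The nuclear receptors REV-ERB alpha and beta (from Nr1d1 and Nr1d2), also under E-box control, repress Arntl through ROR elements, so in mouse liver Nr1d1 and Dbp are high when Arntl is low, and Arntl is high when they are low. DBP and TEF are transcription factors of the PAR bZIP family that carry the rhythm to D-box genes, NFIL3 opposes them at the same sites, and CIART is a repressor of BMAL1 and CLOCK. Per1 has a further input, since in many mouse tissues it is induced within a short time by cAMP signalling and glucocorticoids.

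RefSeq promoter windows (GRCm38.p6, 300 bases around each start) were found for 9 of the 10 genes, in 11 windows. Each was searched on both strands for the E-box CACGTG, its variant CACGTT, the D-box written as TTATGTAA or TTACGTAA, the core AGGTCA of the ROR element, the core TGACG of the cAMP element and the core TGGGAA of the sites of RBPJ, the DNA-binding partner of Notch. The windows shown are those of Per1, the gene that passed the test, of Ciart, which held 3 E-boxes, and of Arntl, the activator that fell. Capitals mark matches to every motif but the RBPJ core, of which these windows hold none.
Per1, plus strand, chr11:69098699-69098998: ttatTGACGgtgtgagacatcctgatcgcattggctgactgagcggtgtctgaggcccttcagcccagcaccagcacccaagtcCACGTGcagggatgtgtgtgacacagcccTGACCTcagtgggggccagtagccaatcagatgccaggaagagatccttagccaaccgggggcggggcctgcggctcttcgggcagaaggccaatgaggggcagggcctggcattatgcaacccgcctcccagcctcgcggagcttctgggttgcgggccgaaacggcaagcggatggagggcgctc
Ciart, minus strand, chr3:95882179-95882478: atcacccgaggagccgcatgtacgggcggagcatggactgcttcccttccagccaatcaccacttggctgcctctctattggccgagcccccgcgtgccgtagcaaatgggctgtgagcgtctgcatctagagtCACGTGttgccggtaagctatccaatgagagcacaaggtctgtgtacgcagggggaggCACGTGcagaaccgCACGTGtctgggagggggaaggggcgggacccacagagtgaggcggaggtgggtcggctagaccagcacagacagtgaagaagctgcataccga
Arntl, plus strand, chr7:113207261-113207560: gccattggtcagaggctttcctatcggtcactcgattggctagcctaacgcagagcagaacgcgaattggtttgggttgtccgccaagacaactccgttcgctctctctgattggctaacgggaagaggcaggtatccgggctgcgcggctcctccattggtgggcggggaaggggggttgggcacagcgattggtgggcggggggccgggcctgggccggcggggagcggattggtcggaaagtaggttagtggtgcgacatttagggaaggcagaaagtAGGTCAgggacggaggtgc
The Per1 window held 1 match each to the cAMP core, the E-box and the ROR core, the last on the other strand. Its second start, chr11:69099902-69100201, held 1 cAMP core and 1 RBPJ core and no E-box. The Arntl window shown held 1 ROR core, while the window of another Arntl start, chr7:113207215-113207514, held none of the motifs. The E-box stood in windows of 4 genes (Per1, Cry1, Tef and Ciart), where 7.15% of the 32851 windows in the table hold it. Its variant stood in those of Cry1, Cry2 and Nr1d1 (4.68% of all windows), and of these genes only Per3 held a D-box, with 2 matches (1.06%). The cAMP core was found for Per1, Cry1 and Cry2 (20.8%), the ROR core for Per1 and Nr1d2 (16.3%) and the RBPJ core for Per1, Cry2 and Tef (25.6%). The Dbp window held none of these motifs. Matches to different motifs overlapped at 1 place in the 13 windows of these genes and Arntl. A match describes letters in a window and not a bound site.

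The arrays carried sinusoidal endothelium in both groups. All 11 markers listed for it (among them Stab2, Lyve1, Clec4g and Mcam, which encodes the CD146 antigen) lay above the median of all values, 3.67, in both groups, and their mean per array ran from 10.57 to 10.79 in NICD-OE-HEC and from 10.79 to 11.06 in Control, with 3 of the 11 called higher and 7 lower in NICD-OE-HEC. Of 5 Notch targets 4 rose, and the groups were separate for 3 of them (Hey1, Hes1 and Nrarp) and overlapped for Heyl, which rose, and for Hey2, which did not pass. Hey1, a repressor induced by Notch, had levels of 6.74 to 7.39 in NICD-OE-HEC and 3.89 to 4.89 in Control. Correlations between arrays of a group lay between 0.976 and 0.992. Along the second principal component, with 16.4% of the variance, Control 2 (-48.5) and NICD-OE-HEC 4 (-30.3) stood apart from the other arrays, and results that change without these arrays are marked below. Over all probe sets, 10.5% were called, 4.89% higher and 5.59% lower in NICD-OE-HEC, by limma with Benjamini-Hochberg adjustment at an adjusted p under 0.05. The values are log2 RMA levels without detection calls, so a level near or below 3.67 cannot be separated from background. In such bulk samples, fewer cells of a type and less RNA per cell cannot be told apart.

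Of the 10 clock genes, 1 rose in NICD-OE-HEC, Per1, and 0 fell, beside a background of 10.5% of all probe sets called, so the share is near the background. Without adjustment 3 of 10 had p under 0.05 (Per1, Dbp and Nr1d1), beside 21.7% of all probe sets. Differences had no common direction, 4 being positive and 6 negative, with a median of -0.13 against -0.01 over all probe sets. For none of the 10 were the groups separate, whereas 6.68% of all probe sets had groups that did not overlap. Per2, Per3 and Cry2 lay close to the median of all values, and Cry2 lay below it in both groups.

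**Figure D1:**
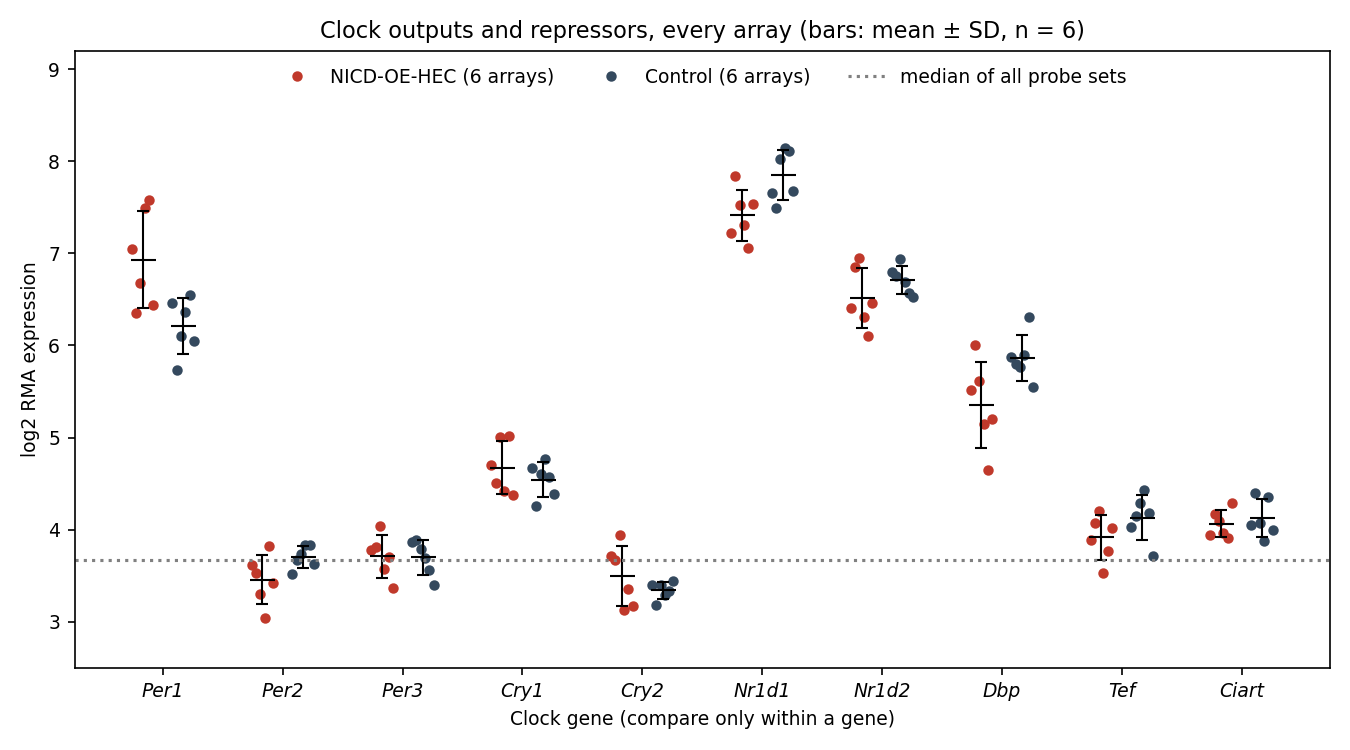
Log2 RMA level of each clock output or repressor on every array, NICD-OE-HEC left of Control, with mean ± SD (n = 6 each) and the median of all probe sets as a dotted line. The groups overlap for every gene, most of the NICD-OE-HEC arrays lie above Control for Per1, and most lie below Control for Dbp.

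Among the repressors, Per1 (Entrez gene 18626), the period gene that responds fastest to outside signals, had a lowest, median and highest log2 level of 6.35, 6.86 and 7.58 over the NICD-OE-HEC arrays, against 5.73, 6.24 and 6.55 over the Control arrays. NICD-OE-HEC 5 and NICD-OE-HEC 4 were the highest at 7.58 and 7.49, and 4 of the 6 NICD-OE-HEC arrays exceeded every Control array, while NICD-OE-HEC 2 and NICD-OE-HEC 6 lay within the Control range. Per1 was 1.65-fold higher on the linear scale (log2 difference 0.72, SE 0.22, limma adjusted p = 0.0453). Its call was lost without Control 2, 3, 4 or 6 or NICD-OE-HEC 1, 3, 4 or 5, its difference ranging from 0.59 to 0.83 over the 12 single omissions (adjusted p from 0.0219 to 0.0961). It was lost too without both arrays that stood apart (0.51, adjusted p = 0.151).

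The other period genes did not follow Per1. Per2 (18627), a core repressor that in mouse liver peaks near the start of the night, had levels of 3.05, 3.48 and 3.82 (lowest, median, highest) in NICD-OE-HEC and 3.52, 3.71 and 3.84 in Control, and 3 NICD-OE-HEC arrays lay below the Control range. Its log2 difference was -0.25 (95% interval -0.50 to 0.01, limma adjusted p = 0.246). Per3 (18628), which is dispensable for the core rhythm, differed by 0.01 (95% interval -0.25 to 0.27), with levels of 3.36 to 4.04 in NICD-OE-HEC and 3.40 to 3.89 in Control. Both genes sat near the background level, which bounds what these arrays can show of them.

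The cryptochromes, which bind BMAL1 and CLOCK and silence them, showed no call. Cry1 (12952) had levels of 4.38, 4.61 and 5.02 in NICD-OE-HEC, against 4.25, 4.59 and 4.77 in Control, a log2 difference of 0.13 (95% interval -0.15 to 0.41). Cry2 (12953) ran from 3.13 to 3.95 in NICD-OE-HEC and from 3.19 to 3.44 in Control, a difference of 0.16 (95% interval -0.13 to 0.44). For Cry2, 2 NICD-OE-HEC arrays lay below and 3 above the Control range, so its spread was wider in NICD-OE-HEC on both sides. Its mean lay below the median of all values in both groups, at levels that cannot be separated from background. Ciart (229599), whose window held the 3 E-boxes, had levels of 3.92, 4.03 and 4.29 in NICD-OE-HEC, against 3.88, 4.06 and 4.40 in Control, and differed by -0.06 (95% interval -0.29 to 0.17).

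Nr1d1 and Nr1d2 encode the REV-ERB receptors that repress Arntl. Nr1d1 (217166) had a lowest, median and highest level of 7.06, 7.42 and 7.84 in NICD-OE-HEC, against 7.50, 7.85 and 8.14 in Control. NICD-OE-HEC 1, 4 and 5 lay below every Control array and NICD-OE-HEC 2, 3 and 6 lay inside the Control range. Its log2 difference of -0.44 (SE 0.15, 95% interval -0.75 to -0.12) did not pass (limma adjusted p = 0.0752), but it passed without Control 2 or without NICD-OE-HEC 2, the lowest adjusted p being 0.0307, and when the dimmest 50% of probe sets were left out (adjusted p = 0.0461). Nr1d2 (353187) had levels of 6.11, 6.44 and 6.95 in NICD-OE-HEC, against 6.53, 6.72 and 6.94 in Control. NICD-OE-HEC arrays lay below the Control range in 4 cases and above it in 1, and the difference was -0.20 (95% interval -0.49 to 0.10, adjusted p = 0.471), its sign turning (0.09) with the mean of the early response genes as a covariate.

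The PAR bZIP output genes lay on the same side. Dbp (13170), which in mouse liver has among the widest daily swings of any transcript, had levels of 4.65, 5.36 and 6.00 in NICD-OE-HEC, against 5.55, 5.83 and 6.31 in Control. NICD-OE-HEC 5 was the lowest array and NICD-OE-HEC 1, 4, 5 and 6 lay below every Control array. The log2 difference was -0.51 (SE 0.19, 95% interval -0.91 to -0.11) and did not pass (limma adjusted p = 0.111), except without NICD-OE-HEC 2 (adjusted p = 0.0282). Tef (21685), a second factor of this family, ran from 3.53 to 4.21 in NICD-OE-HEC and from 3.71 to 4.43 in Control, a difference of -0.22 (95% interval -0.50 to 0.07, adjusted p = 0.398).

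**Figure D2:**
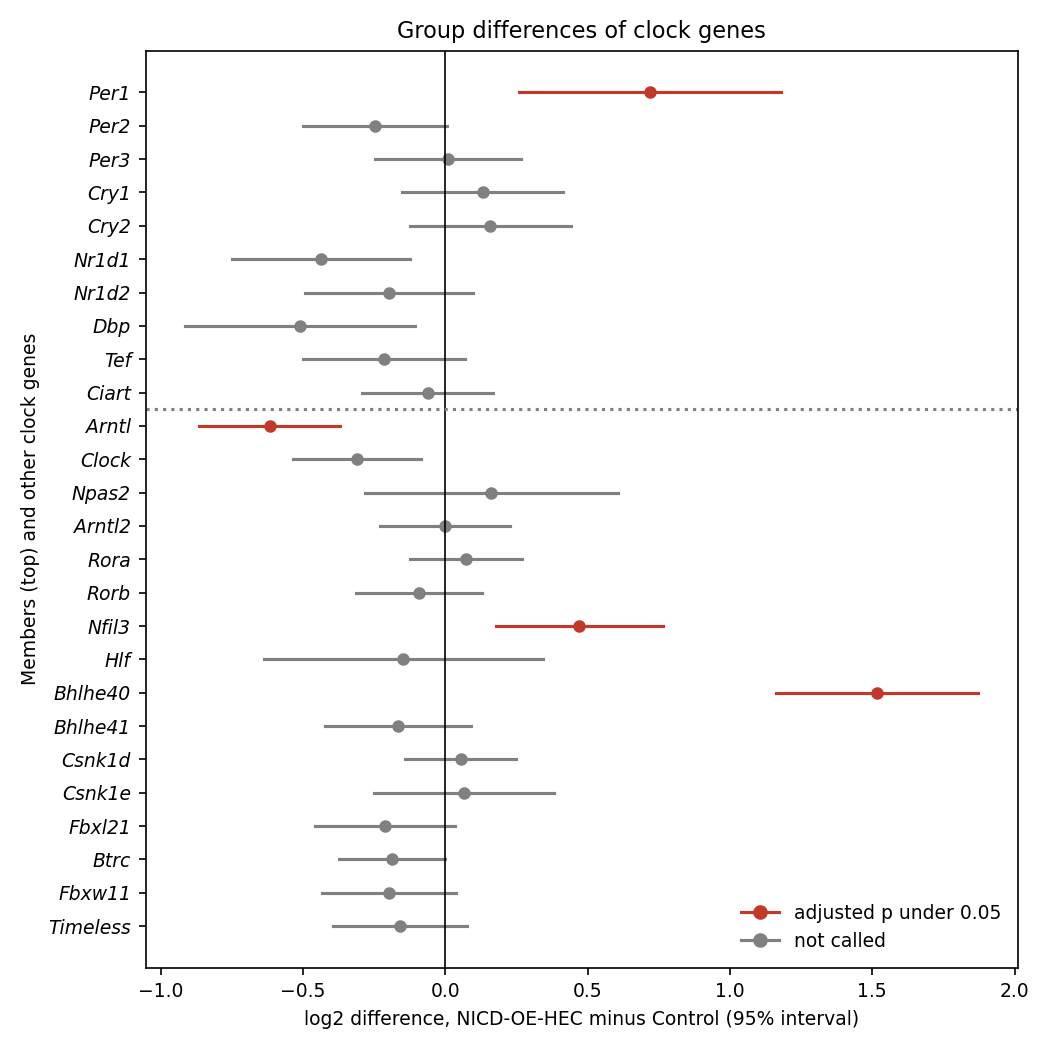
Log2 difference, NICD-OE-HEC minus Control, with its 95% interval for the 10 clock outputs and repressors (above the dotted line) and for 16 other clock genes. Per1, Nfil3 and Bhlhe40 passed the test upwards and Arntl downwards, and the intervals of Dbp, Nr1d1, Clock and Btrc miss 0 although their adjusted p did not pass.

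In the activating arm Arntl fell. Arntl, which encodes BMAL1, had a lowest, median and highest level of 6.34, 6.60 and 6.96 in NICD-OE-HEC, against 6.98, 7.26 and 7.31 in Control, and the groups did not overlap. It fell by 0.62 on the log2 scale (SE 0.12, limma adjusted p = 0.00221), between -0.69 and -0.57 over single arrays left out and -0.57 (adjusted p = 0.0107) without both arrays that stood apart. Its partner Clock ran from 7.84 to 8.15 in NICD-OE-HEC and from 8.09 to 8.64 in Control, a difference of -0.31 (SE 0.11, adjusted p = 0.0785), and Npas2, which can replace CLOCK, differed by 0.16 (95% interval -0.28 to 0.61). Nfil3, the D-box repressor, had levels of 4.37, 4.63 and 4.96 in NICD-OE-HEC, against 3.89, 4.14 and 4.52 in Control, and rose by 0.47 (SE 0.14, adjusted p = 0.0391). That call was lost without Control 3, 4, 5 or 6 or NICD-OE-HEC 1, 4 or 5 (up to adjusted p = 0.0963) and without both arrays that stood apart (adjusted p = 0.0619). Arntl2, Rora and Rorb differed by 0.00, 0.07 and -0.09 without a call. The means of Arntl2 and Rorb lay below the median of all values in both groups, at levels that cannot be separated from background. In all, 1 of 7 measured genes of the activator and ROR list rose and 1 fell, beside 10.5% of all probe sets called.

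Of 9 other clock components 1 rose and 0 fell, beside 10.5% of all probe sets called. Bhlhe40, also called DEC1, an E-box repressor that many stimuli induce, had levels of 7.97, 8.44 and 9.09 in NICD-OE-HEC, against 6.75, 6.94 and 7.34 in Control. It stood clear of the Control range on all 6 NICD-OE-HEC arrays and was 2.86-fold higher (log2 difference 1.52, SE 0.17, limma adjusted p = 1.78e-05). The remainder, which were its relative Bhlhe41, the PAR factor Hlf, the casein kinases Csnk1d and Csnk1e, the ubiquitin ligase subunits Btrc, Fbxw11 and Fbxl21, and Timeless, differed by between -0.21 and 0.07 without a call, and Bhlhe41 and Fbxl21 lay below the median of all values. In a list of genes that cycle in many mouse tissues, 1 of 7 rose and 0 fell, likewise near the 10.5% of all probe sets. That gene was Usp2, a deubiquitinase, with 4.27 to 4.71 in NICD-OE-HEC and 4.15 to 4.40 in Control (log2 difference 0.33, SE 0.09, adjusted p = 0.0295). Its call was lost without Control 1, 3, 4 or 6 or NICD-OE-HEC 1, 3, 5 or 6 (up to adjusted p = 0.0752).

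Spread within a group describes how far arrays of the same group differed in these genes. Each array held a pool of 3 mice, so differences between mice of the same pool do not show in it. The SD over the 6 arrays was larger in NICD-OE-HEC than in Control for 8 of the 10 clock genes, beside 51.5% of all probe sets, and stayed at 7 to 9 of 10 over single arrays left out. Those 8 include Per2, Per3 and Cry2, whose levels near the median of all values cannot be separated from background. They also include Nr1d1, whose SD was nearly the same in both groups (0.276 in NICD-OE-HEC and 0.275 in Control). The median SD of the clock genes was 0.28 in NICD-OE-HEC and 0.20 in Control, beside 0.20 in both groups over all probe sets. Dbp varied 2.55-fold between the lowest and the highest NICD-OE-HEC array and 1.69-fold between Control arrays, and its SD ranked at the 94.4th percentile of all probe sets in NICD-OE-HEC and at the 68.0th in Control. Per1 varied 2.34-fold in NICD-OE-HEC, its SD at the 96.4th percentile, and 1.76-fold in Control, at the 80.9th. Nr1d1 varied 1.72-fold in NICD-OE-HEC and 1.56-fold in Control, and Ciart 1.30-fold in NICD-OE-HEC and 1.43-fold in Control. No test of these spreads was made.

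**Figure D3:**
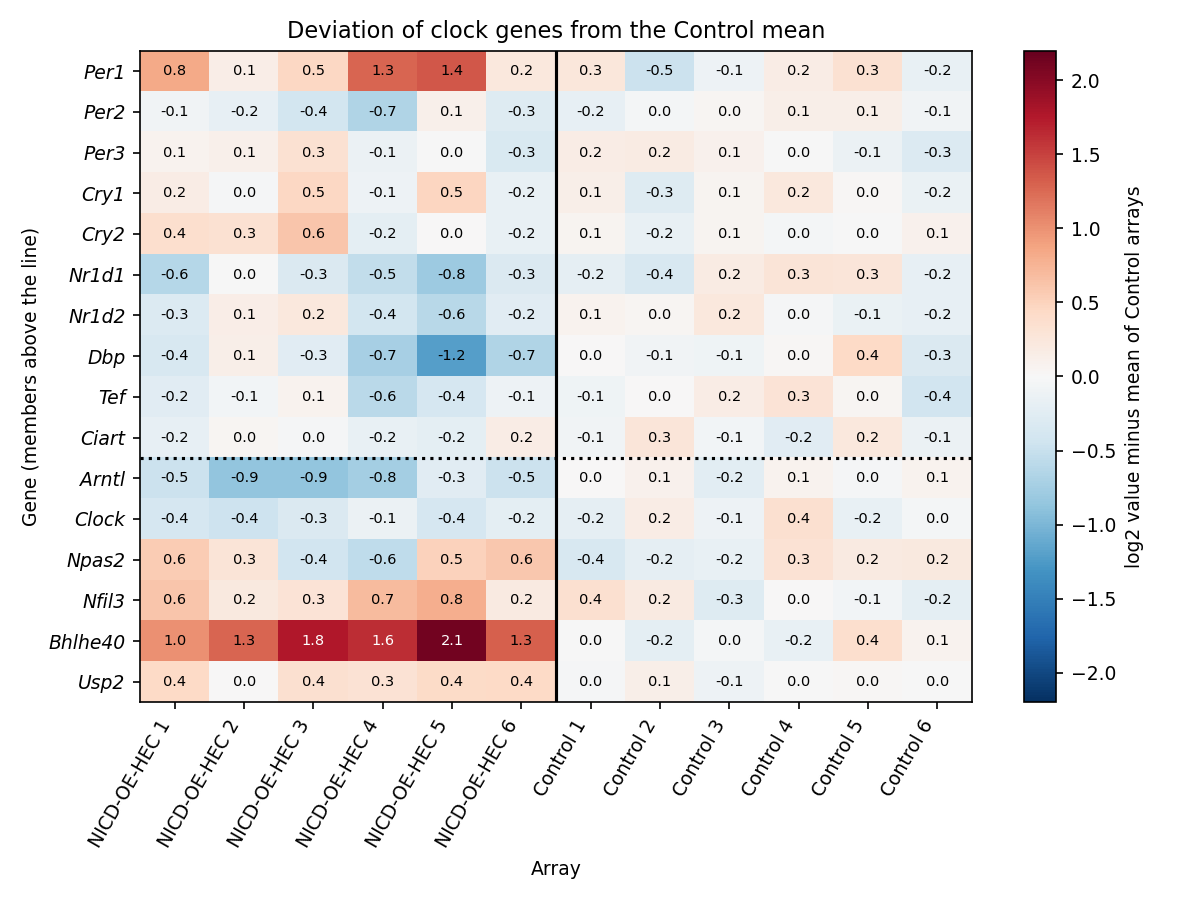
Log2 value of each gene on each array minus its mean over the Control arrays, for the 10 clock outputs and repressors and for 6 further clock genes. Arntl is lower and Bhlhe40 higher on every NICD-OE-HEC array than the Control mean, and NICD-OE-HEC 5 combines the highest Per1 with the lowest Dbp and Nr1d1.

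Single arrays showed whether the genes moved together. NICD-OE-HEC 2 had the highest Dbp (6.00) and Nr1d1 (7.84) of its group with a low Arntl (6.35). NICD-OE-HEC 5 had the lowest Dbp (4.65) and Nr1d1 (7.06) with the highest Arntl (6.96). NICD-OE-HEC 5 also had its group's highest mean of the early (9.02), cAMP (5.19), glucocorticoid (7.98) and heat and cold (8.06) response genes. Its means of the hepatocyte (6.66) and Kupffer cell (7.85) markers were the lowest of the group. For neutrophil markers and Notch targets it was neither highest nor lowest. What part these lists have in its Dbp, Nr1d1 and Arntl levels was not tested. Within NICD-OE-HEC, Dbp correlated with Nr1d1 at Pearson's r = 0.828 (n = 6, exact permutation p = 0.0472) with Spearman's rho at 0.714 (its exact permutation p = 0.136). Leaving out the 2 arrays farthest from the Nr1d1 median gave r = 0.05. That step narrows the range of Nr1d1 and leaves few arrays, so it cannot tell what the relation rests on. Dbp against Arntl gave r = -0.776 (exact permutation p = 0.0569), rho = -0.771 (its exact permutation p = 0.103) and r = -0.518 without the 2 farthest. Nr1d1 against Arntl gave r = -0.745 (exact permutation p = 0.1), rho = -0.543 (its exact permutation p = 0.297) and r = -0.579 without the 2 farthest.

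With all 6 arrays kept, Control gave smaller values of the same sign. There Dbp correlated with Nr1d1 at r = 0.541 (n = 6, exact permutation p = 0.286; rho = 0.486, its exact permutation p = 0.356), Dbp with Arntl at r = -0.122 (exact permutation p = 0.768; rho = -0.257, its exact permutation p = 0.658), and Nr1d1 with Arntl at r = -0.449 (exact permutation p = 0.408; rho = -0.486, its exact permutation p = 0.356). Without the 2 arrays farthest from the median, r was 0.667, -0.461 and 0.03. The first then exceeded its NICD-OE-HEC counterpart (0.05), and the last no longer shared the sign of its counterpart (-0.579). Per1 against Dbp was negative in NICD-OE-HEC (r = -0.756, exact permutation p = 0.0792, rho = -0.829, exact permutation p = 0.0583, r = -0.291 without the 2 farthest). It was positive in Control (r = 0.656, exact permutation p = 0.158, rho = 0.771, exact permutation p = 0.103, r = 0.735 without the 2 farthest), and whether the groups differ in this was not tested. In all, 10 relations were computed, chosen after the values were seen, and 0 passed Benjamini-Hochberg adjustment over the 10 (lowest adjusted p = 0.25 for r and 0.34 for rho), beside 1 with an unadjusted p under 0.05. Between the groups, by contrast, Dbp, Nr1d1 and Arntl all had negative differences.

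**Figure D4:**
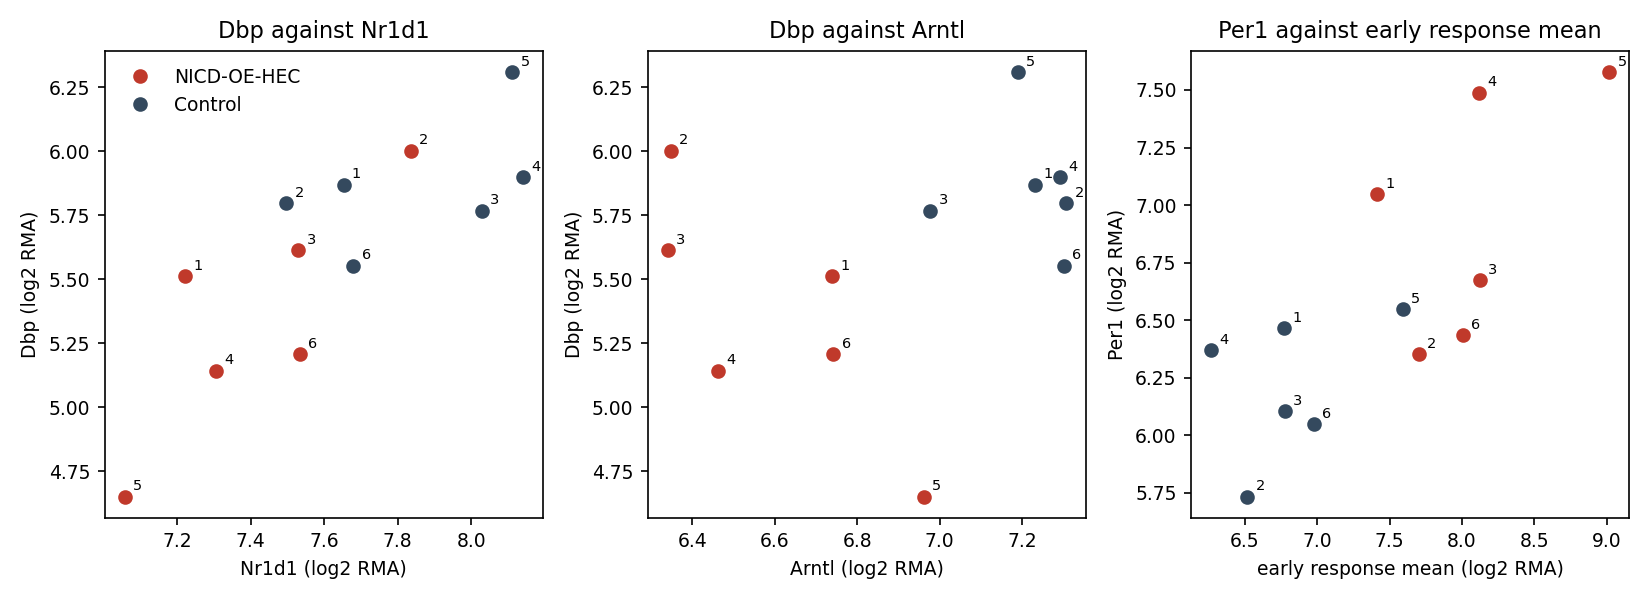
Log2 levels on each array, numbered by replicate, of Dbp against Nr1d1, Dbp against Arntl, and Per1 against the mean of 17 early response genes. Within NICD-OE-HEC, r was 0.828 for Dbp and Nr1d1 (0.05 without the 2 farthest arrays) and -0.776 for Dbp and Arntl, neither passing adjustment over the 10 relations, while the early response mean of most NICD-OE-HEC arrays lies above every Control array.

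With each gene centred on its group mean, the likeness of 11511 named probe sets above the median level to 3 of the clock genes was described by Pearson's r over the 12 arrays. Closest to Dbp were Kif16b (0.861), Timp2 (0.846), Wnt9b (0.839), Cybrd1 (0.838) and Rtcb (0.838), and most opposed were Pcf11 (-0.871), G2e3 (-0.871) and Pdk4 (-0.867). Nr1d1 stood at rank 69 for likeness to Dbp (0.697), Nr1d2 at rank 120 (0.656) and Tef at rank 444 (0.536). Arntl stood at rank 11307 (-0.638). The other clock genes ranked ran from 0.399 (Ciart) to -0.505 (Usp2), with Npas2 (-0.071) and Cry1 (-0.093) between them. Closest to Nr1d1 were Lysmd2 (0.843), Cby1 (0.825), Sdhc (0.816), Pamr1 (0.797) and Trim37 (0.785), and most opposed were Chil1 (-0.856), Adpgk (-0.845) and Vhl (-0.819). Dbp stood at rank 52 there, Arntl at rank 11383 (-0.614) and Nfil3 at rank 11481 (-0.713). The other clock genes ranked ran from 0.633 (Tef) to -0.629 (Usp2). Of these, Ciart, Npas2, Cry1, Clock and Per3 lay between 0.161 and -0.042. Per1 went with other genes, closest being Sfrp2 (0.920), C9orf72 (0.918), Jdp2 (0.915), Fmn1 (0.911) and Nckap5l (0.891), and most opposed being Tmem106b (-0.911), Extl2 (-0.908) and Dtd2 (-0.904). Of the clock genes, Nfil3 stood at rank 246 for likeness to Per1 (0.667) and Bhlhe40 at rank 632 (0.553), while Dbp stood at rank 10143 (-0.420) and Nr1d2 at rank 11265 (-0.656). The value for Dbp pools groups of opposite sign, negative in NICD-OE-HEC and positive in Control. With so many genes and 12 arrays, high values arise in any ranking, and these are descriptions only.

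Early response genes also differed on these arrays, beside 4.89% of all probe sets called higher and 5.59% lower. Of 17 early response genes, known to be induced while cells are isolated, 13 rose and 0 fell, with a median log2 difference of 1.28 and a mean per array of 7.41 to 9.02 in NICD-OE-HEC and 6.27 to 7.59 in Control. Egr1 (2.23), Fos (1.95), Zfp36 (1.74) and Junb (1.71) led them. Among 8 genes of the cAMP and CREB response 4 rose and 0 fell, namely the orphan receptor Nr4a1 (1.61), the kinase Sik1 (1.56), the phosphodiesterase Pde4b (0.92) and the CREB family member Crem (0.40). Per1 against the early response mean gave r = 0.555 within NICD-OE-HEC (n = 6, exact permutation p = 0.264, rho = 0.543, exact permutation p = 0.297) and r = 0.410 within Control (exact permutation p = 0.438, rho = 0.314, exact permutation p = 0.564), with r = 0.627 in NICD-OE-HEC and 0.478 in Control without the 2 farthest arrays. With that mean as a covariate the Per1 difference was 0.18 (SE 0.33, limma adjusted p = 0.927), and that of Arntl was -0.74 (adjusted p = 0.0652) with its call lost, while Bhlhe40 kept a call at 0.77 (adjusted p = 0.0122). In the same fit Dbp differed by -0.16 (SE 0.31), Nr1d1 by -0.31 (SE 0.25), Tef by -0.02 (SE 0.22) and Clock by -0.14 (SE 0.18), without a call. This covariate itself differs between the groups, so the fit cannot tell it apart from the genotype, and it called 767 probe sets in all. The part of the early and cAMP responses in the clock gene levels was not tested.

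Glucocorticoid response genes split, with 2 of 9 higher and 3 lower, beside 4.89% of all probe sets higher and 5.59% lower. Errfi1, a feedback inhibitor of EGF receptor, rose by 1.09, and Fkbp5, a cochaperone of the glucocorticoid receptor, rose by 0.67 (named after its value was seen). The kinase Sgk1 fell by 1.09 and the metallothioneins Mt2 and Mt1 fell by 1.14 and 0.79, while Tsc22d3, which encodes GILZ, differed by 0.03. Of 9 heat and cold response genes 3 rose and 0 fell, beside the same shares. They were the chaperones Hspa1b (0.92), Hspa1a (0.67) and Hspd1 (0.53). Hspa1a and Hspa1b are near-identical copies whose signals may mix. The cold-induced Cirbp and Rbm3 differed by -0.04 and 0.07 (Tsc22d3, Cirbp and Rbm3 were likewise named after their values were seen).

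Markers of other cell types differed on these arrays too, beside 4.89% of all probe sets called higher and 5.59% lower. Which cells their RNA came from was not tested. Of 11 hepatocyte markers 5 rose and 0 fell, and their mean per array was 6.66 to 8.18 in NICD-OE-HEC and 5.85 to 7.33 in Control, with Alb and Tat higher by 1.13 and 1.76. Of 6 neutrophil markers 5 rose (means of 5.35 to 7.36 in NICD-OE-HEC and 3.37 to 5.39 in Control), led by Retnlg (3.13) and S100a8 (2.93), with Ly6g (named after its value was seen) on average below the median of all values in both groups. All 4 measured cholangiocyte markers rose, among them Sox9 (1.12) and Epcam (0.97), with means of 4.88 to 5.42 in NICD-OE-HEC and 4.11 to 4.60 in Control. Of 8 stellate and mural cell markers 3 rose, Col1a1 (2.49), Rgs5 (1.09) and Acta2 (0.78), and Lrat fell by 0.75, with means of 5.98 to 6.54 in NICD-OE-HEC and 5.17 to 6.36 in Control. Of 7 Kupffer cell markers and 5 lymphocyte markers 0 were called by limma (1 and 0 with an unadjusted p under 0.05), the largest differences being those of Adgre1 (0.84) and C1qa (0.51) among the first and of Nkg7 (0.47) and Cd3e (-0.27) among the second. With the hepatocyte mean as a covariate Arntl kept its call (-0.63, limma adjusted p = 0.0232) and Per1 did not (0.70, adjusted p = 0.202). The SE of Per1 was 0.28 in that fit, against 0.22 in the main fit. This covariate too differs between the groups, so the fit cannot tell it apart from the genotype. The part of the other cell types in the clock gene levels was not tested, and the harvest times of the arrays cannot be read from these values.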

How the data were processed

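The deposited table holds log2 values that the authors computed with RMA, as the submitters' processing notes record (RMA corrects background, equalises quantiles and summarises each probe set). The sources used here name no software, chip definition or build. Probe sets carried an Entrez identifier, and platform annotation named 24705 of 25428 with 1 symbol and left 723 without. A few genes of the companion lists were not analysed here.

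Differences were NICD-OE-HEC minus Control in limma 3.58.1 under R 4.3.3 (lmFit and eBayes, no covariates, two-sided, 12 arrays), with Benjamini-Hochberg adjustment over all probe sets. SD is over 6 arrays. The number of arrays limits the precision. Nothing beyond the word biological in the labels says how the pools were kept apart. Relations within a group were tested over all 720 orders of 6 arrays.

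The clock genes, companion lists, tests and naming rule were chosen with earlier results of these data known. The rule names all clock genes, up to 4 called genes by size in each other list (or the 2 largest where none passed), and the genes most like Dbp, Nr1d1 and Per1. Data were simulated from these 25428 probe sets for NICD-OE-HEC against Control, with independent normal noise. There 43.3% of changes of log2 0.5, 88.1% of log2 1 and 100% of log2 2 were called. Those changes were placed in 67, 67 and 66 probe sets. The data themselves had 2666 calls, so the adjustment was not alike and these shares are not the sensitivity on the data. Alternatives were median centring, further quantile normalization, filters on dim probe sets, trended robust moderation, array weights, a block for the replicate number, arrays left out, 2 covariates and a minimum difference of log2 0.5.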

Additional observations from a re-analysis of the deposited data

Results flagged for a closer look

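Of 54 groups of 6 arrays tested, 2 for each of 27 clock genes, 4 held an array that lay far from the other 5, and chance flags about 1 group in 20. Usp2 was low on NICD-OE-HEC 2 at 4.27, the nearest other NICD-OE-HEC array being at 4.58. Arntl was low on Control 3 at 6.98, the nearest other Control array being at 7.19, still above every NICD-OE-HEC array. Arntl2 was high on Control 2 at 3.89, the nearest other Control array being at 3.39, and its mean lay below the median of all values in both groups. Bhlhe41 was high on Control 3 at 2.97, the nearest being at 2.47, both below the median of all values. None of the 10 clock outputs and repressors met this criterion in either group.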

How the results depend on the processing

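The report counts 1 clock output or repressor as called. That count was 2 without the dimmest 50% of probe sets (Nr1d1 joining Per1), 0 without both arrays that stood apart, and 0 with the early response mean or the hepatocyte mean as a covariate. With array weights Nr1d1 was called (adjusted p = 0.0469) in place of Per1. With single arrays left out the count lay between 0 and 3. The count over all probe sets, 2666, was 767 with the early response mean, 1698 with the hepatocyte mean and 1764 with a log2 difference of at least 0.5, and lay between 2107 and 2970 with single arrays left out. The count of clock genes with the larger SD in NICD-OE-HEC, 8, lay between 7 and 9 and was 8 under median centring and without both arrays that stood apart. Some differences without a call changed sign. Per3 was -0.100 with the hepatocyte mean and lay between -0.0569 and 0.0788 with single arrays left out. Arntl2 was 0.0547 with array weights, 0.0913 without both arrays that stood apart and 0.0240 with the early response mean, and lay between -0.0381 and 0.0889 with single arrays left out. Ciart was 3.42e-04 with array weights and 0.0112 without both arrays. With the early response mean Cry1 was -0.0411 and Nr1d2 was 0.0916. Per1 lost its call with array weights (adjusted p = 0.0571). Clock passed without the dimmest 50% of probe sets (adjusted p = 0.0455), and Nfil3 and Usp2 lost theirs with the trended robust fit (adjusted p = 0.0503 and 0.0699), with the early response mean (0.621 and 0.579) and with the hepatocyte mean (0.404 and 0.126), and both differences lie under log2 0.5. The cause of these changes was not tested, beyond fewer probe sets or arrays entering the fit. Same-numbered arrays correlated in their deviations from the group means at over 0.1 in 3 of 6 pairs (r from -0.105 to 0.219), and numbers 1 and 5 matched best with themselves, so shared handling of some pairs was not settled and the fit without the block was kept. With the replicate block Per1 had an adjusted p of 0.00353, 1 clock gene and 2507 probe sets were called, and Usp2 lost its call (adjusted p = 0.0864).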
